A study of Mus musculus with 33 samples.

Results

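A set of 2194 autosomal windows of 100 bp had a methylation score in calvarial-derived osteoblasts (calvarial-OB) that was above 0 and below 0.5 times the score in tail-tip fibroblasts. They were 28.4% of the 7726 windows on chromosomes 1 to 19, and 22.5% of all 9743 windows, in a list that the authors deposited as differentially methylated. The members were chosen by the fibroblast and calvarial-OB scores themselves, so these 2 scores are given as a description and carry no test. The rule did not use the score in induced osteoblasts (iOB). How the authors selected the listed windows is not given in the sources used here, so the iOB score may have shaped the list. Together the members cover 219400 bp.

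The study enriched methylated DNA from 3 kinds of mouse cells, with 3 enriched libraries and 3 input libraries in each group. Tail tips of mice carrying the Col2.3GFP reporter gave the fibroblasts; in such mice a fragment of a type I collagen promoter drives green fluorescent protein in cells of the osteoblast lineage. The iOB were made from such fibroblasts: lentivirus carrying transcription factor genes was removed after 24 hours, day 3 brought a split, and culture in osteogenic medium began on day 5. The calvarial-OB came from progenitor cells of the skull vault that are labelled as undergoing osteoblast differentiation. The labels give no age or sex, do not say whether the 3 libraries of a group came from separate animals, and list no fibroblasts given virus or osteogenic medium alone. Cell origin (tail or skull) and cell type therefore cannot be told apart between fibroblasts and calvarial-OB, nor can virus, factors, medium and time in culture between fibroblasts and iOB.

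In mammalian DNA, methyl groups sit mostly on cytosines that are followed by guanine. The maintenance enzyme Dnmt1 with its partner Uhrf1 copies the pattern after replication, Dnmt3a and Dnmt3b place new marks, and the Tet enzymes oxidize them on the way to removal. Differentiated cells of different lineages and body positions are known to differ in methylation at many regulatory sites outside promoters. Here the marks were read by capturing sonicated DNA of 100 to 350 bp with the methyl-CpG-binding protein MBD2b together with MBD3L1. Neighbouring windows can therefore be covered by the same fragments, and a score reports a stretch of DNA, not a single cytosine.

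Each group has 1 deposited value per window, the mean relative methylation score, with no value per library. No spread between libraries, SD or test between groups can be given for any window, and the read depth behind the scores is unknown. The windows carry mm9 coordinates. They were not assigned to genes, since the annotation at hand was of a different build (GRCm38), and their DNA sequence is not shown for the same reason.

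The members were windows with high scores in fibroblasts and moderate scores in calvarial-OB. The fibroblast score ran from 0.197 to 0.807 with a median of 0.677 (quartiles 0.663 and 0.69). The calvarial-OB score ran from 0.065 to 0.39 with a median of 0.28 (quartiles 0.27 and 0.305). The calvarial-OB to fibroblast ratio ran from 0.118 to 0.498 with a median of 0.436 (quartiles 0.397 and 0.458). Most members thus lay nearer to the threshold of the rule than to 0. Only 711 of the 2194 had a ratio below 0.4.

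**Figure D1:**
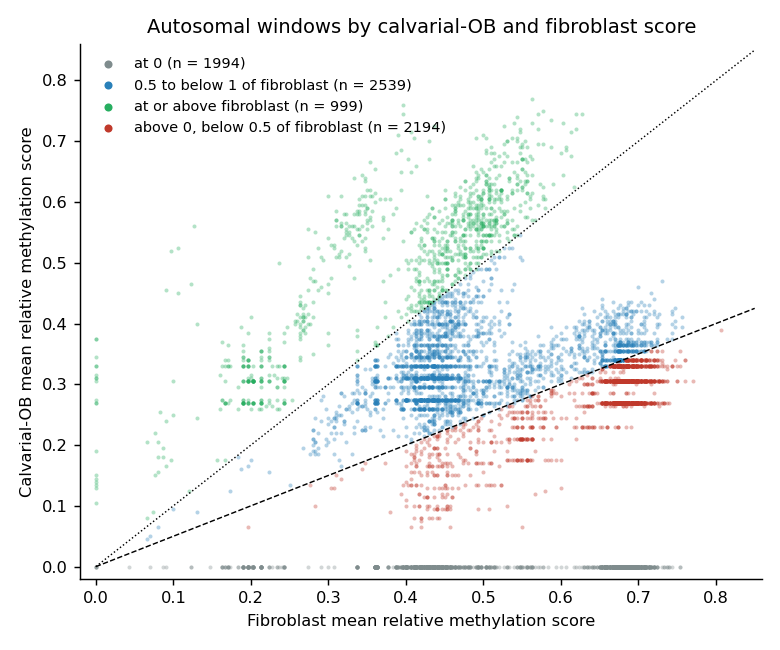
Calvarial-OB against fibroblast mean relative methylation score (both axes, no unit) for the 7726 autosomal windows, 1 point per window, coloured by class. The dashed line is 0.5 times the fibroblast score and the dotted line equality. The 2194 members (red) form horizontal bands at a few calvarial-OB values, mostly at fibroblast scores of 0.65 to 0.72, and the 1994 windows at 0 lie on the axis.

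The threshold passed through a dense part of the list. There were 800 members with a ratio of 0.45 or more, and 442 windows outside the rule with a ratio from 0.5 to below 0.55. The 3 members just inside, chr3:19994801-19994900, chr4:14249001-14249100 and chr4:77614701-77614800, each scored 0.683 in fibroblasts and 0.34 in calvarial-OB. Just outside, chr1:194896901-194897000 scored 0.5 and 0.25, chr2:98793101-98793200 scored 0.66 and 0.33, and chr3:12469101-12469200 scored 0.52 and 0.26. A total of 24 windows stood exactly at 0.5 within a tolerance of 1e-06 and were left outside.

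Most members lay at 1 fibroblast level, as did most windows at 0 in calvarial-OB. Of the 2194, 1659 (75.6%) had a fibroblast score from 0.65 to below 0.72. At that level lay 3173 of the 7726 autosomal windows, and 1144 of the 1994 windows at 0 in calvarial-OB. Of the 3173, 52.3% were members and 36.1% had a calvarial-OB score of 0. A further 11.7% scored from 0.5 to below 1 times the fibroblast score (called mildly lower), and none was at or above it. At fibroblast scores from 0.4 to below 0.5, by contrast, 7.52% of 2553 windows were members, 21.6% were at 0, 56.0% were mildly lower and 14.9% were at or above the fibroblast score. Below 0.4 the share of members was 1.51% of 861 windows. Since the rule uses the fibroblast score, these shares describe the list and are no test.

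The calvarial-OB scores of the members fell on few values. The value 0.27 was held by 666 members, 0.305 by 659, 0.33 by 285 and 0.34 by 82, which is 77.1% of all members at 4 values, on 18 or 19 of the 19 autosomes each. Among the 1659 members with fibroblast scores from 0.65 to below 0.72, 1611 (97.1%) had 1 of these 4 values. Members with fibroblast scores below 0.5 could have none of them, since the rule keeps their calvarial-OB scores below all 4. Those 205 windows had a median calvarial-OB score of 0.165, spread over 33 values, and a median ratio of 0.375. The 245 members with fibroblast scores from 0.5 to below 0.65 lay between, with a median calvarial-OB score of 0.23 and 5 windows at the 4 values. For them the rule leaves out 0.33 and 0.34. The contrast between these fibroblast levels thus follows in part from the rule and is no test.

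At 2 pairs of neighbouring calvarial-OB values the fibroblast scores differed. The 769 autosomal windows at 0.27 had a median fibroblast score of 0.677, and 86.6% of them were members. The 271 windows at 0.275 had a median fibroblast score of 0.43, and 2.58% were members. The same held for 0.305, where 772 windows had a median of 0.677 and 85.4% were members, against 0.31, where 257 windows had a median of 0.437 and 3.11% were members. It did not hold throughout: windows at 0.33 and 0.34 had median fibroblast scores of 0.67 and 0.677. The shares of members follow from the fibroblast scores through the rule. Over all autosomal windows above 0, the calvarial-OB score had 2 humps: 3625 of the windows scored from 0.26 to below 0.36, 87 from 0.46 to below 0.5, and 531 from 0.5 to below 0.64. No member could reach the upper hump, since the rule caps the score at 0.5 times a fibroblast score of at most 0.807. Most members lay at the lower hump, but 209 scored below 0.2 and 177 from 0.2 to below 0.26. The lower hump was not particular to members: mildly lower windows had calvarial-OB quartiles of 0.285 and 0.365.

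**Figure D2:**
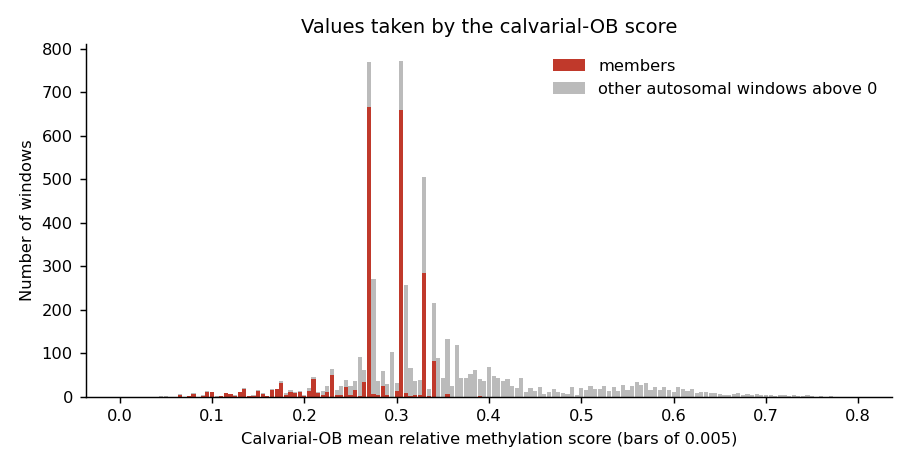
Number of autosomal windows (y axis) at each calvarial-OB mean relative methylation score above 0 (x axis, bars of 0.005), with members in red stacked under the other windows in grey. The members pile up at 0.27, 0.305, 0.33 and 0.34, with 666, 659, 285 and 82 windows.

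The spacing of the scores differed between groups. All 7058 calvarial-OB scores above 0 and all 1280 iOB scores above 0 in the list were whole multiples of 0.005 (tolerance 1e-06). All 8814 fibroblast scores above 0 were multiples of 0.01 divided by 3, and only 30.0% of them were multiples of 0.005. Means of 2 values with 2 decimals fall on multiples of 0.005, and means of 3 such values on multiples of 0.01 divided by 3. The labels list 3 enriched libraries in every group, and how many entered each mean is not given in the sources used here. Among the members, 938 (42.8%) had an odd multiple of 0.005 in calvarial-OB, which 2 equal values with 2 decimals cannot give. Whether a moderate calvarial-OB score stands for an intermediate score in each library or for libraries that differ was not tested, since no value per library was used.

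In iOB almost all members had no score. The iOB score was 0 in 2189 of the 2194 members, and in 98.4% of all autosomal windows of the list. It was below 0.5 times the fibroblast score in 2193 members (99.95%; 95% Clopper-Pearson interval 99.7% to 100.0%, which treats windows as independent), where the background over all autosomal windows was 98.9%. The iOB score was also below the calvarial-OB score in these 2193 members, against 73.5% of all autosomal windows, a share that the rule raises by leaving out windows at 0. Among the 5732 autosomal windows with a calvarial-OB score above 0, the iOB score was below it in 5676. No window of the whole list with a fibroblast score above 0 had an iOB to fibroblast ratio between 0.498 and 1.12, whereas 3173 had a calvarial-OB ratio in that band. The list thus holds hardly any window in which iOB and fibroblasts both scored above 0 and alike. The low iOB scores of the members are shared by the autosomal windows of the list in general, so they are no independent readout of the members.

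The share of windows with any iOB score differed between the classes of the list. It was 0.228% of members (95% Clopper-Pearson interval 0.0740% to 0.531%), 0.552% of the 1994 windows at 0 in calvarial-OB (0.276% to 0.985%), 1.26% of the 2539 mildly lower windows (0.864% to 1.77%) and 7.91% of the 999 windows at or above the fibroblast score (6.31% to 9.76%). The interval of the members overlaps that of the windows at 0 and lies below the other 2. Adjoining windows share fragments, so these intervals are too narrow, and the differences were not tested. The classes also differ in fibroblast score. From 0.65 to below 0.72 lay 1659 members, none with an iOB score above 0, and no window at or above the fibroblast score. The shares therefore cannot be credited to the calvarial-OB class apart from the fibroblast level.

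**Figure D3:**
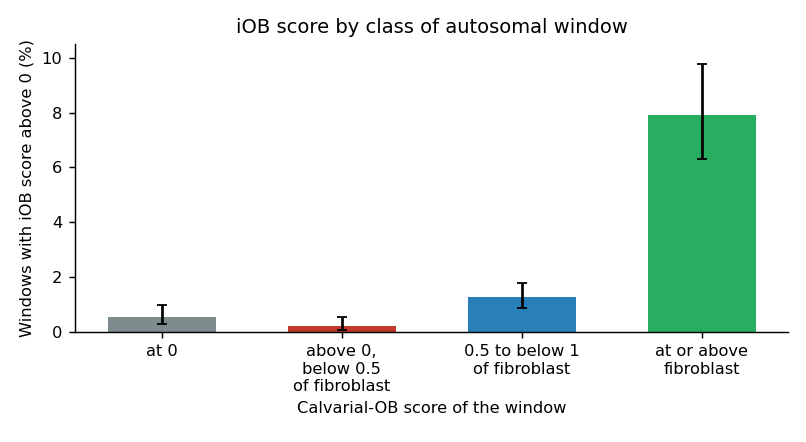
Percent of autosomal windows with an iOB score above 0 (y axis) in 4 classes defined by the calvarial-OB score (x axis); bars are the observed shares and error bars exact 95% binomial intervals. Members stand at 0.228% and windows at or above the fibroblast score at 7.91%. The classes also differ in fibroblast score.

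The 5 members with an iOB score above 0 lay at 3 places. On chromosome 1, the adjoining windows chr1:133577201-133577300 and chr1:133577301-133577400 scored 0.61 and 0.573 in fibroblasts, 0.30 and 0.265 in calvarial-OB, and 0.26 and 0.22 in iOB. On chromosome 2, chr2:39276401-39276500 and chr2:39276501-39276600 scored 0.557 and 0.52 in fibroblasts, 0.275 and 0.25 in calvarial-OB, and 0.22 and 0.20 in iOB. At these 2 places the iOB score lay a little below the calvarial-OB score. The third place, chr9:106285301-106285400, scored 0.197 in fibroblasts, 0.065 in calvarial-OB and 0.34 in iOB, and was the only member in which iOB exceeded fibroblasts. None of the 1251 members with a fibroblast score at or above the members' median had an iOB score above 0.

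Most members stood alone, and some adjoined one another. Joining members that touch gave 1742 runs, of which 1407 were single windows, 252 held 2 windows, 61 held 3 and 22 held 4 or more, and 35.9% of members lay in a run of 2 or more. For comparison, 39.7% of windows at 0 in calvarial-OB, 39.5% of mildly lower windows and 49.3% of windows at or above the fibroblast score lay in such runs of their own class. Allowing a gap of 1000 bp left 1572 runs, so most runs stood alone at that scale, and the median gap from one run to the next was 657300 bp.

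A listed window of any class touched 54.3% of members, against 57.7% of all autosomal windows of the list. Members were 28.4% of the autosomal windows of the list, and a contact between members is counted from both sides here. Seen from a member that touched another listed window, that window was mostly a member too. Of 1483 listed neighbours of members, 61.0% were members, 29.4% were mildly lower windows, 4.79% were at 0 and 4.86% were at or above the fibroblast score. Direct contact between a member and a window at 0 was thus uncommon. Windows at 0 made up 1994 of the 7726, but only 45.2% of them touched any listed window. That share was 63.3% of mildly lower windows and 76.1% of windows at or above the fibroblast score. The classes are cut from the calvarial-OB score and adjoining windows can share fragments, so the shares of neighbours are a description and no test. In the 452 pairs of adjoining members the calvarial-OB scores differed by a median of 0.025 and at most 0.185, and 189 pairs (41.8%) had the same score. Members far apart can match too, since 77.1% of members held 0.27, 0.305, 0.33 or 0.34, and adjoining windows can be covered by the same fragments. The likeness of these pairs was not compared with that of other pairs and was not tested. The other 1003 members (45.7%) had no listed window next to them.

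The longest run was chr6:52153601-52154500, 9 windows and 900 bp, and it also held the member with the largest difference and the lowest ratio. From its first to its last window the fibroblast scores were 0.67, 0.55, 0.58, 0.6, 0.567, 0.53, 0.447, 0.45 and 0.463. The calvarial-OB scores were 0.23, 0.065, 0.125, 0.13, 0.12, 0.10, 0.12, 0.135 and 0.23, and the iOB score was 0 in all 9. The second window, chr6:52153701-52153800, had a ratio of 0.118 and a difference of 0.485. The calvarial-OB score was thus lowest inside the run and highest at both ends, and the windows on either side of the run were not in the list. These 9 were the only listed windows between chr6:52000001 and 53000000.

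After a run of 6 windows on chromosome 15, 5 runs tied at 5 windows, and the 3 with the largest summed score difference are described with it. Run chr15:29972501-29973100, 6 windows, had mean scores of 0.516 in fibroblasts and 0.203 in calvarial-OB. Run chr2:82179101-82179600 and run chr13:86912301-86912800, 5 windows each, alternated: in the first, windows with fibroblast scores of 0.453 and 0.493 had calvarial-OB scores of 0.10 and 0.095, while windows at 0.69, 0.683 and 0.663 had 0.265 each. Run chr9:120357901-120358400, 5 windows, was flat, with fibroblast scores of 0.683 to 0.71 and calvarial-OB scores of 0.27 or 0.305. The 2 tied runs with smaller summed differences were flat as well: chr6:41837501-41838000 scored 0.677 to 0.717 in fibroblasts and 0.305 to 0.33 in calvarial-OB, and chr9:103905001-103905500 scored 0.4 to 0.443 and 0.185 to 0.21. The runs at chr9:120357901 and chr6:41837501 are at the levels most members had, and the other 5 of these 7 runs each include calvarial-OB scores below 0.2, which 209 of the 2194 members had. The iOB score was 0 throughout these runs.

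**Figure D4:**
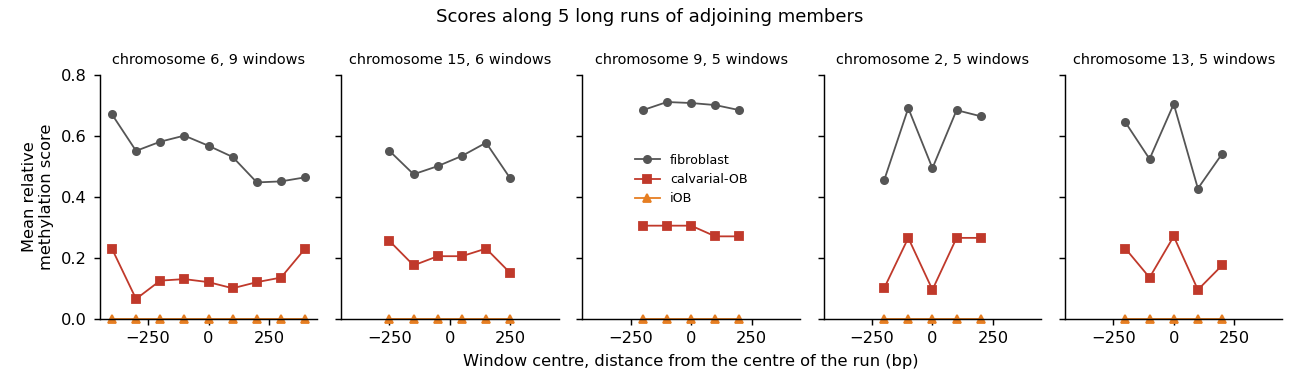
Mean relative methylation score (y axis) along 5 long runs of adjoining members (those of 9 and 6 windows and, of 5 tied runs of 5 windows, the 3 with the largest summed score difference), by distance of the window centre from the centre of the run in bp (x axis), for fibroblasts (circles), calvarial-OB (squares) and iOB (triangles). In each run the calvarial-OB scores lie below the fibroblast scores and all iOB scores are 0.

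Apart from the chromosome 6 run, the members with the largest differences stood at the high end of the fibroblast score. Window chr17:90233801-90233900 scored 0.77 in fibroblasts and 0.305 in calvarial-OB, chr17:10213201-10213300 scored 0.74 and 0.27, and chr2:60878301-60878400 scored 0.737 and 0.27. Their ratios, 0.396, 0.365 and 0.367, were at or below the first quartile of the members. A further 5 of the 10 largest differences, on chromosomes 2, 3, 7, 8 and 12, came with fibroblast scores of 0.727 to 0.733 and calvarial-OB scores of 0.265 or 0.27. The lowest ratios outside that run were found at lower fibroblast scores: chr5:69514601-69514700 scored 0.457 and 0.065 (ratio 0.142), chr1:114167801-114167900 scored 0.42 and 0.065 (0.155), chr13:86853501-86853600 scored 0.407 and 0.065 (0.16), and chr9:121321501-121321600 scored 0.42 and 0.075 (0.179). All 7 of these windows scored 0 in iOB.

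Members were spread over all autosomes, from 22 on chromosome 19 to 192 on chromosome 1. Their share of the listed windows ran from 19.5% on chromosome 19 (95% Clopper-Pearson interval 12.6% to 28.0%) and 22.7% on chromosome 17 (18.0% to 28.0%) to 33.2% on chromosome 11 and 34.4% on chromosome 15 (29.1% to 39.98%), against 28.4% over all. The median fibroblast score lay between 0.673 and 0.683 on every chromosome, and the median calvarial-OB score between 0.27 and 0.305. The median levels were thus alike across chromosomes. The shares were not tested, since adjoining windows are not independent.

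**Figure D5:**
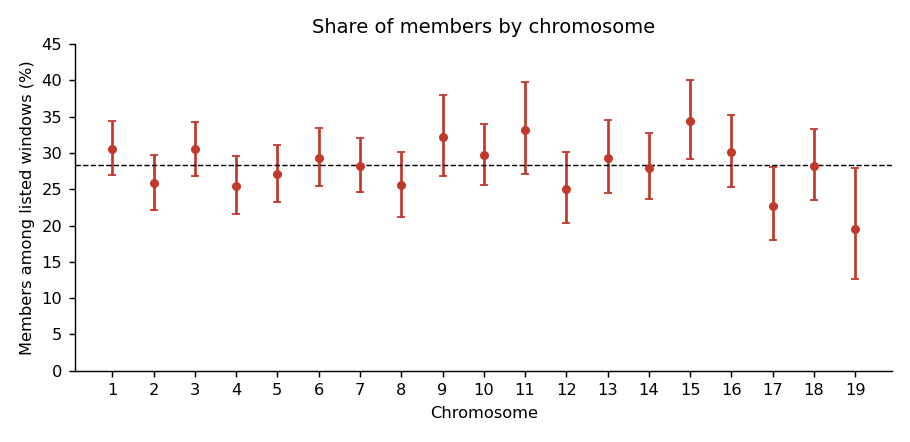
Members as a percent of the listed autosomal windows (y axis) on each chromosome (x axis), with exact 95% binomial intervals that treat windows as independent; the dashed line is the 28.4% of all autosomes. Shares range from 19.5% on chromosome 19 to 34.4% on chromosome 15.

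Local groups of members were small. Of 1799 intervals of 1 Mb with a listed window, 1036 held a member, 470 held exactly 1 and 82 held 5 or more. The fullest, chr15:4000001-5000000, was picked after its count was seen and held 11 members in 8 runs among 15 listed windows, with 4 mildly lower windows and none at 0. Its members included chr15:4232501-4232600 and chr15:4232601-4232700, which scored 0.713 and 0.707 in fibroblasts and 0.305 each in calvarial-OB. It also held chr15:4076601-4076700, which scored 0.587 and 0.175, while the adjoining chr15:4076701-4076800 scored 0.483 and 0.435 and was no member. The interval chr13:86000001-87000000 held 10 members in 3 runs, together with 3 windows at 0.

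On the X chromosome, which the rule leaves out, 147 of 1852 listed windows met the same conditions on the calvarial-OB score. Their median scores were 0.673 in fibroblasts and 0.27 in calvarial-OB, close to those of the autosomal members. Of these, 9 (6.12%) had an iOB score above 0, against 0.228% of the autosomal members. Over all X windows of the list the share was 62.3%, against 1.64% on the autosomes.

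RNA sequencing of the same 3 kinds of cells (3 libraries each, 5646299 to 15023771 counts per library) gives markers of cell types in the cultures. Whether the RNA and the enriched DNA came from the same cultures is not stated, the calvarial-OB RNA libraries are titled as a second dataset, and p-values measure the spread between these libraries, which may be technical. All 9 osteoblast markers of a fixed list were higher in calvarial-OB than in fibroblasts (edgeR quasi-likelihood test, adjusted p below 0.05), where 55.8% of 13438 tested genes were called, 28.4% higher and 27.4% lower. So were all 11 measured of 12 macrophage markers, whose summed level was 3448 to 6212 CPM (counts scaled to a common library size) in calvarial-OB, 2077 to 3382 in iOB and 30.3 to 66.6 in fibroblasts. All 6 adipocyte markers were higher in calvarial-OB as well, at 1103 to 1796 CPM against 131 to 144 in fibroblasts. In iOB 5 of the 6 were higher than in fibroblasts and 1, Fabp4, was lower, and Lpl alone gave 254 to 308 of the summed 285 to 340 CPM. Of 7 fibroblast markers, 4 were lower and 2, Dcn and Fap, higher in calvarial-OB, with sums of 6240 to 6605 CPM against 21651 to 24180 in fibroblasts. Each marker of both lists was detected in calvarial-OB, while Adipoq and Cfd were at 0 in all fibroblast libraries. Of 4 endothelial markers, 3 were tested and 1 was higher, with sums of 6.13 to 13.2 CPM in calvarial-OB and 6.06 to 7.93 in fibroblasts, and of 4 smooth muscle markers none was higher and 1 was lower, with sums of 1194 to 2107 and 1819 to 2542 CPM. A score of a culture is an average over its cells, in which fewer cells with a mark and less of it per cell cannot be told apart. The part of these other cell types in the moderate calvarial-OB scores, and in the RNA values given below, was not tested.

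Genes that write, keep, read and remove DNA methylation were measured in the same libraries, by a fixed list of 27 of which 25 could be tested. In calvarial-OB 8 were higher and 6 lower than in fibroblasts, a share called (14 of 25) like the 55.8% of all tested genes, with a median log2 fold change of 0.17 against 0.02 over all tested genes. In iOB 3 were higher and 9 lower than in fibroblasts, where 43.3% of all genes were called, 22.7% higher and 20.6% lower, with a median of -0.08 against -0.04 over all genes. Both comparisons share the fibroblast libraries. Between iOB and calvarial-OB, 2 of the 25 were higher and 9 lower in iOB, where 48.8% of all genes were called, 24.7% higher and 24.1% lower.

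Among the writers, Dnmt3a stood at 43.9, 35.1 and 30.3 CPM in the fibroblast libraries, 94.6, 73.9 and 67.9 in calvarial-OB and 77.1, 65.3 and 66.3 in iOB. Both osteoblast cultures lay above every fibroblast library, with log2 fold changes of 1.11 ± 0.16 (SE; edgeR adjusted p = 9.7e-05) and 0.93 ± 0.16 (edgeR adjusted p = 5.8e-04). Dnmt3b was low, at 2.72 ± 1.29 CPM in fibroblasts and 4.50 ± 1.12 in calvarial-OB (SD, n = 3), and was not called (edgeR adjusted p = 0.11), except when fibroblast replicate 1 was left out (adjusted p = 0.037; its alternatives ran from there to 0.36). The maintenance genes Uhrf1 and Dnmt1 were lower in iOB and not called in calvarial-OB. Uhrf1 stood at 31.5, 31.6 and 35.3 CPM in fibroblasts, 26.2, 46.9 and 37.8 in calvarial-OB and 8.47, 9.17 and 14.4 in iOB. The iOB libraries lay below all others, with a log2 fold change of -1.63 ± 0.23 against fibroblasts (edgeR adjusted p = 1.5e-04) and -1.80 ± 0.23 against calvarial-OB (edgeR adjusted p = 6.7e-05), while calvarial-OB overlapped fibroblasts (edgeR adjusted p = 0.51). Dnmt1 in iOB had a log2 fold change of -0.55 ± 0.11 against fibroblasts (edgeR adjusted p = 0.0022) and had a log2 fold change of 0.06 ± 0.11 in calvarial-OB (edgeR adjusted p = 0.70).

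Of the Tet genes, Tet1 was higher in calvarial-OB than in fibroblasts, with a log2 difference of 0.83 ± 0.24 (SE; edgeR adjusted p = 0.011), at 11.99, 10.3 and 10.7 CPM against 7.44, 7.22 and 4.07. It was not called in iOB against fibroblasts (edgeR adjusted p = 0.34) and had a log2 fold change of -1.15 ± 0.25 in iOB against calvarial-OB (edgeR adjusted p = 0.0026). Tet3 was lower in calvarial-OB, with a log2 difference of -0.50 ± 0.16 (SE; edgeR adjusted p = 0.019), but this call was lost without fibroblast replicate 1 or 2 (adjusted p = 0.055 and 0.082) or calvarial-OB replicate 2 or 3 (adjusted p = 0.095 and 0.097), with 8.7e-05 as the lowest and 0.097 as the highest among its alternatives. Tet2 was not called in calvarial-OB or iOB against fibroblasts (edgeR adjusted p = 0.57 and 0.92).

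Among genes of the protein families that bind methylated DNA, changes went both ways. The zinc finger gene Zbtb38 stood at 52.0, 54.7 and 56.6 CPM in fibroblasts, 18.2, 17.5 and 14.6 in calvarial-OB and 38.6, 34.6 and 37.8 in iOB. The 3 groups did not overlap, with a log2 fold change of -1.71 ± 0.12 for calvarial-OB against fibroblasts (edgeR adjusted p = 2.9e-07) and 1.15 ± 0.12 for iOB against calvarial-OB (edgeR adjusted p = 1.4e-05). Zbtb33, of the same family, was lower in calvarial-OB by a log2 value of -1.26 ± 0.17 (edgeR adjusted p = 4.9e-05). Mbd2 and Mbd3 were higher there, by 0.54 ± 0.10 and 0.50 ± 0.12 (edgeR adjusted p = 8.3e-04 and 0.0037), and were picked after their values were seen.

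The gene with the largest called fold change of the list was Apobec1, a cytidine deaminase known for editing RNA. It stood at 9.80, 13.2 and 11.7 CPM in fibroblasts, 86.1, 61.8 and 67.2 in calvarial-OB and 41.1, 55.6 and 61.4 in iOB. Both osteoblast cultures lay above every fibroblast library, by 2.64 ± 0.19 and 2.20 ± 0.19 on a log2 scale (edgeR adjusted p = 3.4e-07 and 2.6e-06). Macrophage markers were also higher in both cultures than in fibroblasts, and the part of such cells in this difference was not tested. Idh2, whose product makes the cofactor of the Tet enzymes, was higher in calvarial-OB by 0.92 ± 0.13 (edgeR adjusted p = 9.2e-05), and iOB lay below calvarial-OB by -0.67 ± 0.13 (edgeR adjusted p = 0.0013). Uhrf2, the relative of Uhrf1, was lower in iOB than in fibroblasts by -0.57 ± 0.11 (edgeR adjusted p = 0.0011), at a mean of 69.2 against 102 CPM. No window can be matched to these levels library by library, so the methylation scores and the RNA values stand side by side.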

How the data were processed

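Per the file headers, the deposited score is a relative methylation value averaged by the authors over each of 3 groups in windows of 100 bp; how windows were selected, scores made and inputs used is not given in the sources used here. The mm9 build, Bowtie2, STAR 2.4.2a, R 3.2.2 and DESeq2 appear in the submitters' processing notes. The authors also deposited counts per gene symbol for 9 RNA libraries, whole numbers for 17982 genes; the counting tool and strand setting are not stated. Values headed OB were read as calvarial-OB, and the authors' RNA result tables were not used.

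Members, gene lists, tests and alternatives were chosen with earlier results of these data known. Windows were classed, joined and counted with Python 3.11.15 and pandas 2.3.3. Intervals on shares are Clopper-Pearson (scipy 1.17.1) and cover counting error only. The windows named are those with the largest score difference, the lowest ratio, the 5 longest runs (ties by summed score difference), the highest and lowest iOB ratio and the values next to the threshold; ties at an iOB score of 0 left the iOB ranking without meaning, so the 5 members with an iOB score, seen in the data, are named instead.

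The 9 RNA libraries were fitted together with edgeR 4.0.16 (quasi-likelihood test, TMM, filterByExpr, R 4.3.3), with Benjamini-Hochberg adjustment over 13438 genes and calls at 0.05. The script was tested on simulated data. CPM use TMM-scaled library sizes, and the SE is the log2 fold change over the square root of the F statistic. Named genes are the fixed enzymes and the 4 listed genes with the smallest adjusted p per comparison; Tdg was not analysed here.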

Additional observations from a re-analysis of the deposited data

How the results depend on the processing

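The scores are group means, so no library could be left out for the windows. A ratio below 0.4 in place of 0.5 left 711 members. The share of members with an iOB score below 0.5 of the fibroblast score became 100% with fibroblast scores at or above the autosomal median (0.543) or calvarial-OB scores at or above 0.256 (their 10th percentile above 0), because the 1 exception drops out. The median iOB to fibroblast ratio was 0 under each window alternative run, the count at a ratio below 0.6 was 2973, and runs numbered 1622 and 1572 with gaps of 100 and 1000 bp allowed. For RNA, DESeq2, its size factors, upper-quartile scaling, no filter, fits of 2 groups and leaving out each library kept the counts of called genes within 1.5 times; without 1 library they ran from 6580 to 7825 for calvarial-OB against fibroblast, 4717 to 5125 for iOB against fibroblast and 5435 to 7205 for iOB against calvarial-OB. Upper-quartile scaling moved the median log2 fold change of all genes by 0.09 in the first comparison. Same-numbered libraries did not deviate together (correlations -0.15 to 0.15, 2 of 9 over 0.1), so the numbers were not taken as pairs; with the replicate number as a block 7364, 5614 and 6303 genes were called in the 3 comparisons. Of 348 alternative values for named genes 330 kept direction and side of the threshold. All 13 that changed sign were uncalled in both fits. Leaving out 1 library, the log2 fold change in calvarial-OB against fibroblast ran from -0.031 to 0.11 for Dnmt1, -0.32 to 0.067 for Tet2 and -0.010 to 0.35 for Uhrf1; in iOB against fibroblast from -0.37 to 0.34 for Dnmt3b and -0.058 to 0.22 for Tet2; and in iOB against calvarial-OB from -0.26 to 0.018 for Dnmt3a and -0.26 to 0.15 for Tet3. With only the 2 groups compared, Dnmt3b in iOB against fibroblast had 0.00041. The cause of these changes was not tested.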
